A study of Mus musculus with 6 samples.

Results

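Langerhans cells are the resident antigen-presenting cells of the epidermis, and the 10 genes described here mark them, build the MHC class II molecules by which they present antigen, or encode the keratinocyte cytokine Il34 that sustains them. They are Cd207, Il1r2 and Itgax (cell markers), H2-Aa, H2-Ab1 and H2-Eb1 (chains of class II), Cd74 and H2-DMa (its chaperones), Ciita (its transcriptional activator) and Il34. The genes were taken by symbol from a table of 45513 gene identifiers, and all 10 were found and passed the filter on low counts, among 15513 genes tested. The values are RNA-seq counts from keratinocytes isolated from mouse skin, in 3 controls and 3 Lama3 knockouts, described as 3 mice each.

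On a C57BL/6 background, every mouse carried K14-CreERT, in which the keratin 14 promoter drives a Cre that works only when tamoxifen is bound, and a floxed Lama3 allele (loxP sites around exons 50 to 53). The knockouts had 2 such alleles (Lama3flox/flox/K14-CreERT). The controls are described as having 1 beside a wild type allele (Lama3wt/flox / K14-CreERT), although their genotype label reads wild type. Cre was activated by chow holding 400 mg of tamoxifen citrate per kg. Lama3 encodes the alpha chain of the laminin that anchors the epidermis to the dermis. Keratin 14 is active in basal keratinocytes, so the promoter directs the deletion to these cells and not to Langerhans cells. Age and sex are not given in the labels.

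Langerhans cells are seeded before birth, renew themselves within the epidermis and extend dendrites between keratinocytes. Their receptor Csf1r binds Il34 from keratinocytes, and transforming growth factor beta keeps them in place. Ciita acts on class II genes through factors bound to paired promoter elements, the X box (bound by the RFX complex) and the Y box (bound by NF-Y). The class II dimer is assembled on Cd74, the invariant chain, which proteases such as cathepsin S trim to a short peptide. H2-DM then exchanges that peptide for antigen, and H2-DO restrains H2-DM.

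Below are 4 promoter stretches, of the members H2-Eb1 and H2-Aa and of genes of the same pathway. Those of H2-Eb1, H2-Ob and H2-DMb1 show the pair of elements through which class II genes are controlled together. Capitals mark the X box core AGNNAC and the Y box core GATTGG, searched on both strands of the 250 bases before the start site, with 20 to 34 bases between them. All are from RefSeq on GRCm38.p6, 5′ to 3′ on the strand of the gene. H2-Aa is shown with the Y box core alone, since the X box core as spelled was not found there.
H2-Eb1, chr17:34305755-34305832, plus strand: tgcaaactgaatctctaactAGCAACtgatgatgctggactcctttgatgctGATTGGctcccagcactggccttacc
H2-Ob, chr17:34238797-34238872, plus strand: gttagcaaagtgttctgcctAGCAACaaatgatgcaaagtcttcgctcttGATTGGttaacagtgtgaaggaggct
H2-DMb1, chr17:34153076-34153154, plus strand: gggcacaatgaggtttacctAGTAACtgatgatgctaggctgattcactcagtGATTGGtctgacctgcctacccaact
H2-Aa, chr17:34287847-34287925, minus strand: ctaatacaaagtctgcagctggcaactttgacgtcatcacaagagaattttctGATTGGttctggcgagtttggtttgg

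A promoter was in the table for 6 of the 10 genes, and H2-Eb1 alone of these held the pair. Of 17 other class II pathway genes 14 had a promoter, and H2-DMb1, H2-Oa, H2-Ob and H2-Eb2 held it. The pair was found in 0.807% of all 32851 promoters and the Y box core, with or without the X box core, in 14.6%. A match describes the letters and does not show binding.

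The libraries held 20126395 to 28473479 counts. Levels are given as CPM, the usual scaling of counts by library size, here with TMM factors, and as mean ± SD over the 3 libraries of a group. Differences are log2 fold changes of knockout over control with their standard error (SE). A gene is said to have risen or fallen where the adjusted p by edgeR's quasi-likelihood test, Benjamini-Hochberg over all genes tested, was under 0.05. Lama3 itself lay at 114 to 142 CPM among controls and fell to 79.2 to 98.9 CPM (-0.53, SE 0.14, edgeR adjusted p = 0.0215). Keratinocyte markers were abundant (Krt5 at 8174 CPM in the controls), and Cd207 was detected in all 6 libraries. Control 2 stood apart in the genes described here, and their results that rest on it are given with and without it. In the isolated cell suspensions, fewer Langerhans cells and less RNA of a gene per cell cannot be told apart.

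Cd207 and Il1r2 fell, the other 8 of the 10 genes were not called, and none rose. Among all genes tested 18.8% fell and 17.4% rose, 36.2% in all. The median log2 fold change of the 10 was -0.71, against -0.02 over all genes tested, and it was -0.40 without control 1 and -0.998 without control 2. All 10 estimates lay below 0, as did 51.2% of all genes, and they did so in all 15 alternative analyses. The knockouts lay wholly below the controls for 1 of the 10 (Il1r2), against 26.5% of all genes, and wholly above them for none, against 25.2%. DESeq2 called 4 of the 10 lower (Cd207, Il1r2, H2-Ab1 and H2-DMa), and 20.3% of all genes. Without control 2, 7 of the 10 fell (16.9% of genes fell in that fit), and without control 1 (12.7% of genes), control 3, knockout 1 or knockout 3 none did. Without knockout 2 only Il1r2 did.

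**Figure D1:**
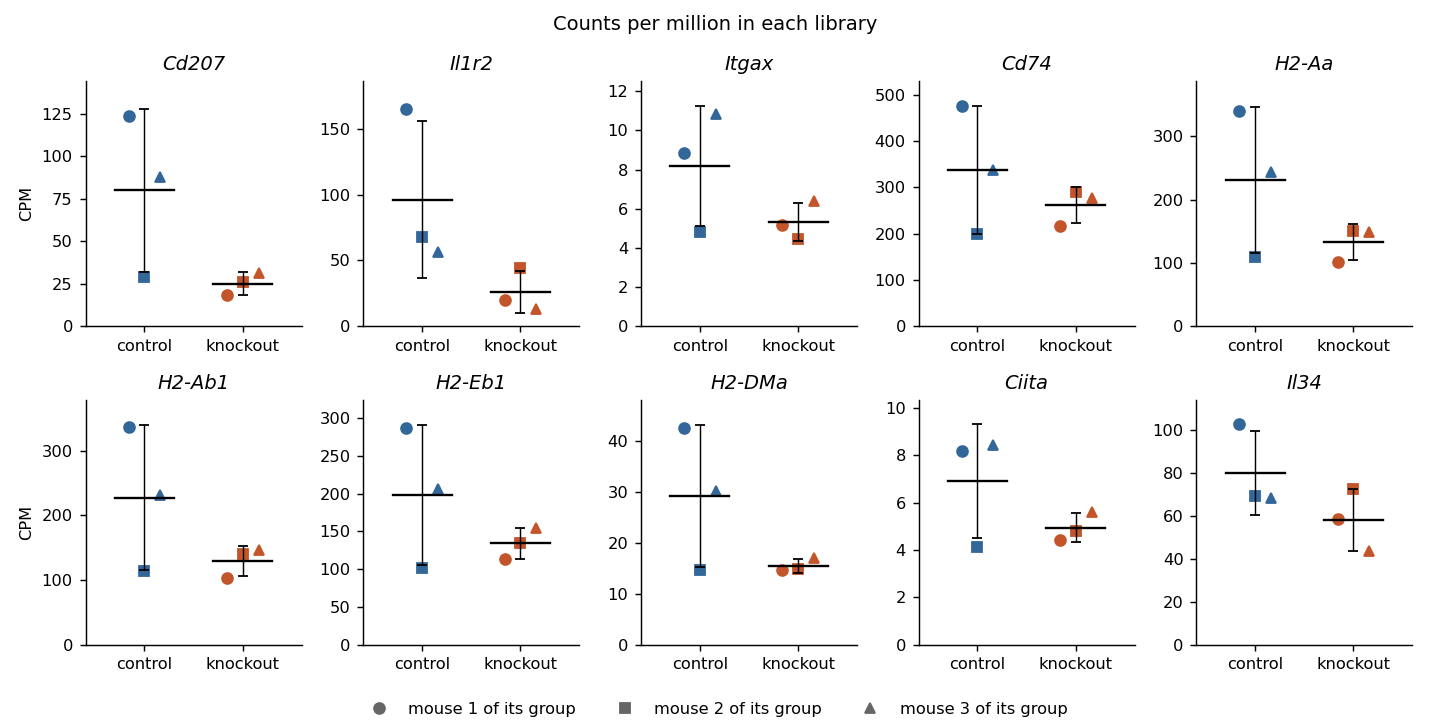
Each panel plots 1 gene, with CPM on the y axis (from 0) and the 3 control and 3 knockout libraries as points. Horizontal lines are means and bars are SD, and the marker gives the mouse's number. Control 2 (blue square) lies among or below the knockouts for 9 of the 10 genes, all but Il1r2.

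Cd207 encodes langerin, the lectin that forms Birbeck granules and defines Langerhans cells (ENSMUSG00000034783, chromosome 6, 83671215 to 83677857, minus strand, GRCm38). Its level was 124, 28.6 and 87.8 CPM in controls 1, 2 and 3, and 18.2, 25.7 and 31.3 CPM in knockouts 1, 2 and 3. Controls 1 and 3 lay above every knockout, while control 2 lay within the range of the knockouts. Cd207 fell from 80.1 ± 48.1 to 25.0 ± 6.56 CPM, a log2 fold change of -1.68 (SE 0.49, edgeR adjusted p = 0.0328). The larger spread was in the controls. The call did not hold on leaving out control 1 (edgeR adjusted p = 0.0836), control 3 (0.104), knockout 1 (0.102), knockout 2 (0.0890) or knockout 3 (0.0640). Without control 2 Cd207 was called lower, at -2.06. It was not called with limma-voom (adjusted p = 0.0643), with no filter on low counts (edgeR, 0.168) or with the replicate number as a block (edgeR, 0.0718).

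Il1r2 encodes the decoy receptor for interleukin 1, which Langerhans cells express and neutrophils do too (ENSMUSG00000026073, chromosome 1, 40074079 to 40125231, plus strand). It was measured at 165, 67.6 and 56.0 CPM in controls 1, 2 and 3 and at 20.2, 44.1 and 13.3 CPM in knockouts 1, 2 and 3. The groups did not overlap, and control 1 stood well above the other libraries. Il1r2 fell by 1.89 on the log2 scale (SE 0.55, edgeR adjusted p = 0.0329). The call did not hold on leaving out control 1 (-1.25, edgeR adjusted p = 0.0804), control 2 (0.0587), control 3 (0.0526), knockout 1 (0.106) or knockout 3 (0.0887), and with no filter on low counts (0.172). Of 8 neutrophil markers, Ly6g, Retnlg and Cxcr1 had no count in any library and Csf3r stayed under 1 CPM, while 3 of the 4 tested rose (Cxcr2, S100a8 and S100a9). Among all genes tested 17.4% rose. S100a8 was not called on leaving out control 3 (edgeR adjusted p = 0.0699), with no filter on low counts (0.0722) or with the replicate block (0.0611). The summed CPM of that list was 27.4 to 43.8 among controls and 171 to 1535 among knockouts. Most of the sum among knockouts came from S100a8 and S100a9, while in controls 1 and 3 Mmp9 was the largest (24.3 and 14.1 CPM). Which cells carry the rise of Cxcr2, S100a8 and S100a9 was not tested, nor was the part of other cells in the level of Il1r2.

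Itgax encodes CD11c, the integrin chain of dendritic cells (ENSMUSG00000030789, chromosome 7, 128129547 to 128150657, plus strand). Its level was low, at 8.87, 4.81 and 10.8 CPM among controls and 5.16, 4.43 and 6.39 CPM among knockouts. Control 2 lay among the knockouts, and Itgax was not called (-0.62, SE 0.31, edgeR adjusted p = 0.144). It fell without control 2 (-0.88, edgeR adjusted p = 0.0285), and the estimate was -0.36 without control 3.

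The class II chain genes stand together on chromosome 17 of GRCm38: H2-Ab1 (ENSMUSG00000073421) at 34257689 to 34269419, H2-Aa (ENSMUSG00000036594) at 34282744 to 34287823 and H2-Eb1 (ENSMUSG00000060586) at 34305867 to 34316674. H2-Aa and H2-Ab1 encode the alpha and beta chain of I-A. H2-Eb1 encodes the beta chain of I-E, a dimer that C57BL/6 mice do not display because their gene for its alpha chain is defective. H2-Ab1 was measured at 337, 113 and 231 CPM among controls and at 103, 140 and 146 CPM among knockouts. H2-Aa was at 340, 109 and 244 CPM among controls and at 101, 150 and 149 CPM among knockouts. In both genes controls 1 and 3 lay above all knockouts, and control 2 lay within the knockouts' range.

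None of these chains was called with all libraries. The log2 fold changes were -0.81 (SE 0.36, edgeR adjusted p = 0.111) for H2-Ab1 and -0.79 (SE 0.38, edgeR adjusted p = 0.134) for H2-Aa. H2-Eb1 was measured at 287, 101 and 206 CPM among controls and 113, 135 and 154 CPM among knockouts (-0.56, SE 0.33, edgeR adjusted p = 0.217). Here control 2 lay below every knockout. Without control 2 all 3 chains fell, with log2 fold changes of -1.12 (H2-Ab1), -1.12 (H2-Aa) and -0.87 (H2-Eb1) and edgeR adjusted p of 0.0133, 0.0145 and 0.0200. Without control 1 none was called, and the estimates were -0.40 (H2-Ab1), -0.40 (H2-Aa) and -0.19 (H2-Eb1). H2-Ab1 was also called lower by DESeq2 (adjusted p = 0.0495). H2-Eb1 overlaps an antisense gene, and since the use of strand in counting is not given in the sources used here, reads of the pair cannot be told apart. The chains are related in sequence, so reads shared between copies are uncertain.

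**Figure D2:**
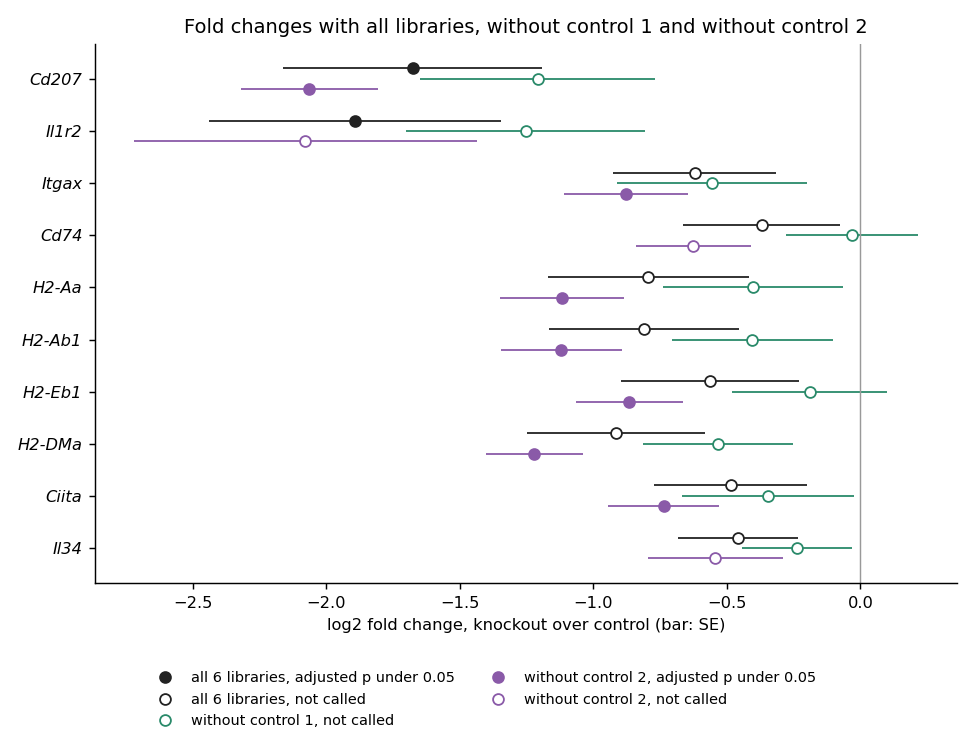
Points give the log2 fold change of knockout over control (x axis) for each of the 10 genes and bars the SE, with all 6 libraries (black), without control 1 (green) and without control 2 (purple). Filled points passed an adjusted p of 0.05, which 2 genes did with all libraries, none without control 1 and 7 without control 2. All estimates lie below 0, and those without control 1 are the nearest to it for all 10, with Cd74 at -0.03.

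Cd74 was the most abundant of the 10 (ENSMUSG00000024610, chromosome 18, 60803848 to 60812652, plus strand). Its level was 477, 199 and 337 CPM among controls and 217, 289 and 278 CPM among knockouts. Control 2 was the lowest of all 6 libraries. Cd74 was not called with all libraries (-0.37, SE 0.29, edgeR adjusted p = 0.351) or under any of the 15 alternatives. Its estimate was -0.03 without control 1, -0.63 without control 2 and -0.24 without knockout 1.

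H2-DMa encodes the alpha chain of the peptide exchanger H2-DM (ENSMUSG00000037649, chromosome 17, 34119541 to 34139101, plus strand). It was at 42.6, 14.7 and 30.1 CPM among controls and at 14.6, 14.8 and 17.0 CPM among knockouts, which lay close together. Control 2 lay between the lower pair of knockouts. The log2 fold change of -0.92 (SE 0.33) was not called (edgeR adjusted p = 0.0651), and it was called with DESeq2 (adjusted p = 0.0224), with upper-quartile factors (edgeR, 0.0415) and without control 2 (edgeR, -1.22, 0.00670). Without control 1 it was -0.53. The annotated gene overlaps Brd2 on the other strand.

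Ciita, the activator on which class II transcription depends, was at the lowest level of the 10 (ENSMUSG00000022504, chromosome 16, 10480059 to 10528418, plus strand). It was measured at 8.18, 4.15 and 8.45 CPM among controls and at 4.44, 4.78 and 5.63 CPM among knockouts, with control 2 below every knockout. It was not called (-0.49, SE 0.29, edgeR adjusted p = 0.214), and it fell without control 2 (-0.74, edgeR adjusted p = 0.0355). Without control 3 the estimate was -0.31.

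Control 2 was the lowest control for 8 of the 10 genes, all but Il1r2 and Il34, and for 32.3% of the 13973 tested genes with a mean of at least 1 CPM. Its level was 27.1% of the mean of controls 1 and 3 for Cd207, and 37.5% to 49.8% for the 6 class II genes. Over the 13973 genes the median of that share was 100.0%, and 5% of genes were below 58.1%. Controls 1 and 3 both lay above every knockout for 9 of the 10 genes, against 31.7% of those genes. For Cd207, Itgax and the class II genes, then, the knockouts lay near or above control 2 and below the other controls.

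Ratios between genes within a library do not depend on the scaling of that library, and 6 were read. Those of Cd207, Cd74 and H2-Eb1 to H2-Ab1 separated the groups and the other 3 overlapped. Among single genes 26.5% had all knockouts below all controls and 25.2% had them above. The share over ratios of other genes was not computed. The count ratio of Cd207 to H2-Ab1 was 0.368, 0.253 and 0.379 among controls and 0.177, 0.184 and 0.214 among knockouts. All knockouts lay below all controls, control 2 included, with a log2 difference of -0.78. The exact permutation p (2-sided, 3 against 3) was 0.1, the smallest this design allows, and 0.15 after adjustment over the 3 ratios tested. The ratio of Cd74 to H2-Ab1 was 1.42, 1.77 and 1.46 among controls and 2.12, 2.07 and 1.90 among knockouts. Here all knockouts lay above all controls, with a log2 difference of 0.40 (exact permutation p = 0.1, adjusted 0.15).

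The ratio of H2-Aa to H2-Ab1, the partner chains of I-A, was 1.01 ± 0.0433 among controls and 1.02 ± 0.0440 among knockouts. The groups overlapped, and the log2 difference of 0.02 was smaller than the spread between libraries (exact permutation p = 0.7, adjusted 0.7). The sign of this difference changed without control 2 (-0.011) or knockout 2 (-0.013). The remaining ratios were chosen after their values were seen and were not tested. The ratio of H2-Eb1 to H2-Ab1 was 0.853 to 0.897 among controls and 0.968 to 1.10 among knockouts. That of H2-DMa to H2-Ab1 was 0.129 ± 0.0021 among controls and 0.121 ± 0.0188 among knockouts, with overlap. That of Cd207 to Il1r2 was 0.914 ± 0.589 among controls and 1.28 ± 0.940 among knockouts, also with overlap. Within a library, then, Cd207 was lower relative to H2-Ab1 in every knockout, Cd74 and H2-Eb1 were higher relative to it, and H2-Aa was not separated between the groups.

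**Figure D3:**
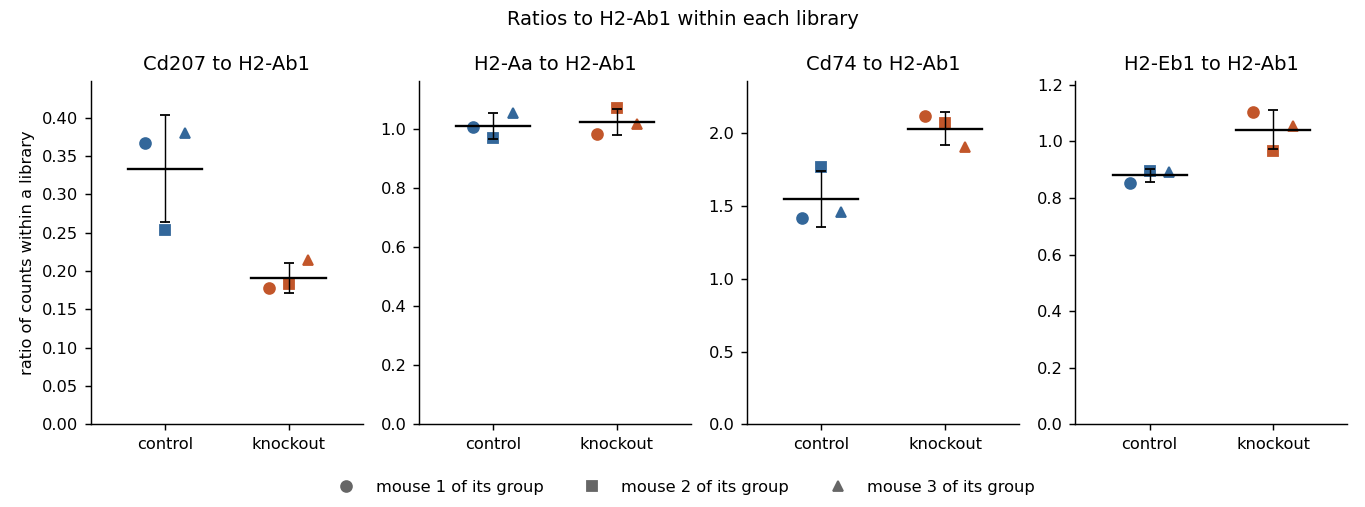
Each panel plots the ratio of the counts of a gene to those of H2-Ab1 within each library (y axis from 0), with points as libraries, lines as group means and bars as SD. The groups separate for Cd207 (0.177 to 0.214 among knockouts, 0.253 to 0.379 in the controls), for Cd74 and for H2-Eb1, and overlap for H2-Aa.

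Levels of different genes were compared per kilobase of annotated exon (RPKM, from the CPM and the union of all exons). In the controls the order was Cd74 (201 ± 82.7 RPKM), H2-Eb1 (102 ± 48.0), H2-Ab1 (88.4 ± 43.6), H2-Aa (60.8 ± 30.4), Cd207 (52.6 ± 31.6), Il1r2 (50.4 ± 31.3), Il34 (40.9 ± 10.1), H2-DMa (8.46 ± 4.05), Itgax (1.70 ± 0.641) and Ciita (0.726 ± 0.253). From H2-Eb1 to Il34, neighbours in this order differed by less than their SD. In the knockouts Il34 (29.8 RPKM) stood above Cd207 (16.5 RPKM) and Il1r2 (13.6 RPKM). By the length of the principal transcript, chosen after the data were seen, H2-Aa was at 205, H2-Ab1 at 187 and H2-Eb1 at 119 RPKM in the controls, so the order among the chains depends on the length used.

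Il34 is the ligand of Csf1r that keratinocytes make (ENSMUSG00000031750, chromosome 8, 110741829 to 110805924, minus strand). It was at 103, 69.4 and 68.2 CPM in controls 1, 2 and 3 and at 58.7, 72.5 and 43.7 CPM in knockouts 1, 2 and 3. Knockout 2 lay above controls 2 and 3, and Il34 was not called (-0.46, SE 0.22, edgeR adjusted p = 0.142). The estimate was -0.24 without control 1 and -0.28 without knockout 3. Control 2 was not low in Il34 as it was in the class II genes. The gene overlaps annotated antisense genes, as does Il1r2.

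The counts of Xist and of the Y-linked gene Ddx3y mark control 1, knockout 1 and knockout 2 as female and the other libraries as male. Among females Il34 was at 103 CPM in the control and at 58.7 and 72.5 CPM among knockouts. Among males it was at 69.4 and 68.2 CPM among controls and at 43.7 CPM in the knockout. The knockouts thus lay below the controls in each sex. With sex as a covariate Il34 fell by 0.65 (SE 0.12, edgeR adjusted p = 0.00969), and 17.4% of genes fell in that fit. Il1r2 had the same order within each sex (165 against 20.2 and 44.1 CPM in females, 67.6 and 56.0 against 13.3 CPM in males). It was called in that fit too (-2.29, edgeR adjusted p = 0.00262). The rest of the 10 genes did not have this order, since among males control 2 lay below knockout 3. The share of all genes with this order was not computed. The sex fit called 3 of the 10 lower, Cd207 among them (-1.70, edgeR adjusted p = 0.0308). Each sex holds 1 group with a single mouse, so no test within a sex was made.

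**Figure D4:**
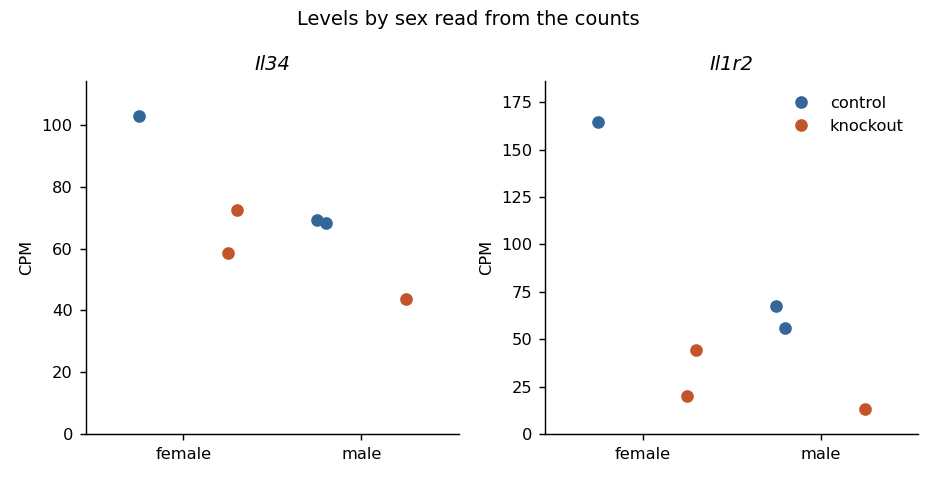
CPM (y axis from 0) of Il34 and Il1r2 in each library, split by the sex read from Xist and Ddx3y counts, with controls in blue and knockouts in orange. In both genes and both sexes the knockouts lie below the controls.

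Csf1r, the receptor of Il34 and of Csf1, was at 36.5, 12.2 and 22.6 CPM among controls and at 26.6, 37.8 and 29.8 CPM among knockouts. It was not called (0.40, SE 0.35, edgeR adjusted p = 0.396). Its estimate had the opposite sign to that of Cd207, but control 2 was the lowest of all 6 libraries. Control 1 lay within the range of the knockouts and control 3 below it. The estimate of Csf1r without control 2 is not given here, so how far its sign rests on that library was not tested. The alternative ligand Csf1 was not called either (0.34, SE 0.16, edgeR adjusted p = 0.120). Of 13 tested genes of Langerhans cell maintenance 4 rose and none fell, against 17.4% and 18.8% of all genes. The median log2 fold change of this list was 0.29, and 0.10 without control 2, 0.15 without control 3, 0.16 without knockout 2 and 0.15 with upper-quartile factors. Axl, a receptor tyrosine kinase that acts downstream of transforming growth factor beta in these cells, rose from 96.0 ± 18.9 to 224 ± 27.9 CPM (1.22, SE 0.17). Tgfbr2 and Tgfbr1, the receptor chains for that factor, rose by 0.90 (SE 0.16) and 0.59 (SE 0.12), and the ligand gene Bmp7 rose by 0.79 (SE 0.15). These 4 calls held in all 15 alternatives. All 4 genes are also expressed by other skin cells, and which cells carry the change was not tested. Of the 9 genes not called, Irf8 (-0.71, SE 0.33), Runx3 (-0.67, SE 0.29), Zbtb46 (-0.61, SE 0.39) and Id2 (-0.22, SE 0.11) had estimates below 0. Those of Ahr, Csf1, Csf1r, Flt3 and Tgfb1 were above 0.

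Other Langerhans cell markers did not move in one direction. Of 12 tested Cadm1 rose and Cd1d1 fell, while 17.4% of all genes rose and 18.8% fell. The median of this list was 0.19 (0.10 to 0.34 with each library left out, 0.077 with sex as a covariate and 0.042 with upper-quartile factors). Without knockout 2 or knockout 3 the number that rose was 2. Cadm1, an adhesion molecule, was at 34.2, 51.4 and 40.3 CPM in controls 1, 2 and 3 and rose to 113, 104 and 81.9 CPM in knockouts 1, 2 and 3 (1.25, SE 0.18), and Cd1d1, a lipid-presenting molecule, fell by 0.88 (SE 0.29). The call of Cd1d1 did not hold on leaving out control 1, control 2, control 3, knockout 1 or knockout 2 (edgeR adjusted p between 0.0887 and 0.127). Nor did it with DESeq2's size factors, no filter on low counts, the replicate block or sex as a covariate (edgeR adjusted p up to 0.0747). Epcam, which keratinocytes also express, was at 263 ± 14.3 CPM among controls and was not called (0.09, SE 0.18). Sirpa, a receptor also found on other dendritic cells, was not called (0.29, SE 0.16) and rose without knockout 3 (0.44, edgeR adjusted p = 0.0422).

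Of the 16 tested class II pathway genes beyond the 10, 2 rose and 2 fell, against 17.4% and 18.8% of all genes. The median of this list was -0.19 (-0.12 without control 1 and -0.34 with upper-quartile factors). Rfx5, the DNA-binding subunit of the RFX complex, was at 35.49, 34.97 and 37.07 CPM among controls and at 25.7, 23.9 and 25.3 CPM among knockouts. It fell by 0.52 (SE 0.10, edgeR adjusted p = 0.00776) with no overlap, and the call held in all 15 alternatives. The other RFX subunits, Rfxap (0.25, SE 0.13) and Rfxank (0.06, SE 0.18), were not called, nor were the NF-Y genes or Creb1 (0.14, SE 0.10). H2-Ob, the beta chain of H2-DO, was barely detected, at 1.05 to 2.04 CPM among controls and 0.349 to 0.799 CPM among knockouts. It fell by 1.64 (SE 0.43). Its call did not hold on leaving out control 1, control 3, knockout 1 or knockout 2 (edgeR adjusted p between 0.0597 and 0.0742).

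The ubiquitin ligase gene March8, whose product can remove class II from the surface, rose by 0.67 (SE 0.17), and Lgmn, a lysosomal protease of antigen processing, rose by 0.57 (SE 0.16). March8 was not called on leaving out control 3, knockout 1 or knockout 2 (edgeR adjusted p between 0.0552 and 0.0624). Lgmn was not called on leaving out the same libraries (0.0745 to 0.0843) and with upper-quartile factors (0.0581). March1, the ligase of dendritic cells, was at 7.67, 2.00 and 6.49 CPM among controls and at 1.52, 1.95 and 2.79 CPM among knockouts, and was not called (-1.36, SE 0.48, edgeR adjusted p = 0.0595). Ctss, cathepsin S, was not called (-0.36, SE 0.37). Without control 2, 6 genes of this list fell. With DESeq2 4 fell, with upper-quartile factors 5 fell and 1 rose, and without control 3, knockout 1 or knockout 2 none rose and 1 fell. Without control 1 the number that fell was 1.

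MHC class I genes were read beside them. Of 10 tested 3 fell and none rose, against 18.8% and 17.4% of all genes. The median of this list was 0.02, and -0.043 to 0.096 with each library left out, so its sign was not stable. B2m, the light chain of class I, was at 2226 ± 278 CPM among controls and 2170 ± 236 CPM among knockouts (-0.04, SE 0.20), and its sign was positive with no filter on low counts and without control 1 or knockout 3. The 3 that fell are the inducible subunits of the immunoproteasome: Psmb10 (-1.31, SE 0.17), Psmb9 (-1.07, SE 0.16) and Psmb8 (-0.84, SE 0.13). Psmb9 was at 145, 99.4 and 133 CPM among controls and 59.2, 53.9 and 66.2 CPM among knockouts. All 3 calls held in all 15 alternatives, and here control 2 lay with the other controls, above every knockout.

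Interferon gamma is the main inducer of Ciita outside professional antigen-presenting cells. Of 9 genes of this signal 1 fell and none rose, against 18.8% and 17.4% of all genes. The median of the 9 was -0.06 and changed sign without control 3 (0.020) or knockout 2 (0.11). Ifng itself was at 4.48, 1.05 and 2.95 CPM among controls and 0.338, 0.558 and 1.31 CPM among knockouts, and fell by 1.93 (SE 0.63, edgeR adjusted p = 0.0448). The call did not hold on leaving out control 1, control 3, knockout 1 or knockout 2 (edgeR adjusted p between 0.102 and 0.141), and with no filter, limma-voom, the replicate block or sex as a covariate. Jak1 was not called (0.34, SE 0.12), though DESeq2 called it higher (adjusted p = 0.0113).

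Of 15 tested genes of dendritic cell activation and emigration 4 fell and none rose, against 18.8% and 17.4% of all genes. The median of this list was -0.45 (-0.71 without knockout 3 and -0.83 with no filter on low counts). Ccr6, the receptor for the epidermal chemokine Ccl20, was at 1.77, 1.76 and 5.86 CPM among controls and 0.338 to 0.581 CPM among knockouts (-2.87, SE 0.58). Cxcl12, a chemokine for emigrating Langerhans cells, fell from 102 ± 24.0 to 55.3 ± 8.55 CPM (-0.89, SE 0.20). Both calls held in all 15 alternatives. Tnf (-0.98, SE 0.29) and Ccl21a (-1.52, SE 0.47), the latter at most 1.16 CPM in any library, were also called. Tnf was not called on leaving out control 1, control 3, knockout 1 or knockout 2 (edgeR adjusted p between 0.0775 and 0.107), and Ccl21a without these or knockout 3 (0.0550 to 0.119) and with DESeq2 (adjusted p = 0.0657). Without control 3, knockout 1 or knockout 2 the number that fell was 2. The lymph node homing receptor Ccr7 (-0.17, SE 0.52) and Cd86 (-0.06, SE 0.42), a costimulatory molecule, were not called. The adherens junction gene Cdh1, by which Langerhans cells hold to keratinocytes and which keratinocytes also express, was not called (0.42, SE 0.21).

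**Figure D5:**
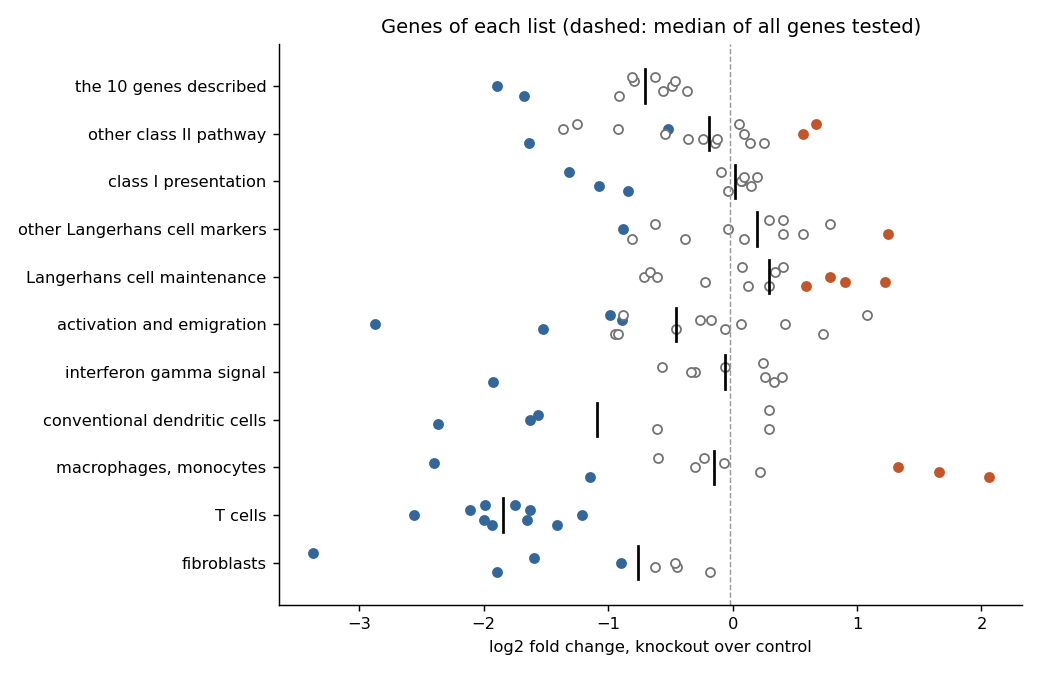
Each point is a tested gene of a list, with its log2 fold change of knockout over control on the x axis, and black ticks are list medians. Orange points rose, blue points fell and open points were not called, and the dashed line is the median of all genes tested (-0.02). The 10 T cell markers all lie to the left, while genes of Langerhans cell maintenance have a median of 0.29 (0.10 without control 2).

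Markers of other cells were read in the same libraries, and their part in the results above was not tested. Among all genes tested 18.8% fell and 17.4% rose. Of 10 T cell markers 10 fell (median -1.84), Cd3e, Cd3g, Cd247 and Thy1 among them, and their summed CPM was 164 to 335 among controls and 71.3 to 87.2 among knockouts. Control 2 had the lowest sum of the controls, at 164 CPM. On leaving out any 1 library other than control 2, 9 of the 10 fell. Of 10 markers of conventional dendritic cells 6 were tested and 3 fell (Itgae, Irf4 and Mgl2, the first also a gene of epidermal T cells), and the summed CPM was 71.6 to 108 among controls and 62.9 to 69.5 among knockouts. Mgl2 was not called on leaving out control 1, control 3, knockout 1 or knockout 2 (edgeR adjusted p between 0.123 and 0.145). Xcr1, Clec9a, Cd209a and Clec10a stayed under 1 CPM in every library. Of 12 macrophage and monocyte markers 10 were tested, 3 rose (the complement genes C1qa, C1qb and C1qc) and 2 fell (Ccr2 and Cx3cr1), with sums of 47.0 to 60.1 and 45.5 to 52.6 CPM. C1qa and C1qb rose in all 15 alternatives. C1qc did not rise with DESeq2, upper-quartile factors, the replicate block, sex as a covariate or any 1 library left out. With a filter of 1 CPM C1qc was not tested. C1qb and C1qc were low, with means of 0.57 and 0.44 CPM in the controls. Without knockout 1 none of that list fell, and without control 1, control 3 or knockout 2 the number was 1. Mertk (-0.07, SE 0.25) and Cd68 (-0.60, SE 0.35) were not called, the former with a sign that changed with sex as a covariate and without control 2 or knockout 3. Cd163, Mrc1 and Fcgr1 stayed under 1 CPM.

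B cells also make class II, and 7 of 8 B cell markers stayed under 1 CPM in every library, with no count of Ms4a1 (CD20) in any. Ighm, the remaining gene, fell by 1.27 (SE 0.33), a call that did not hold on leaving out control 1, control 3, knockout 1 or knockout 2 (edgeR adjusted p between 0.0647 and 0.0774). Of 8 fibroblast markers 4 fell and none rose, against 18.8% and 17.4% of all genes. The sums were 196 to 313 CPM among controls and 115 to 155 CPM among knockouts. Most of each came from Vim, at 134 to 217 CPM among controls and 79.6 to 114 CPM among knockouts. The 4 that fell were Dpt (-3.37, SE 0.60), Dcn (-1.60, SE 0.24), Lum (-1.90, SE 0.55) and Vim (-0.90, SE 0.21), and 2 of them fell without knockout 1. Lum was not called on leaving out control 1, control 3, knockout 1 or knockout 2 (edgeR adjusted p between 0.0765 and 0.0949), and its estimate was -2.89 without knockout 3. The collagen gene Col1a1 was not called (-0.18, SE 0.48), and its sign changed with limma-voom, the replicate block, sex as a covariate and without control 3. Col1a2 (-0.44, SE 0.29), Col3a1 (-0.47, SE 0.55) and Pdgfra (-0.62, SE 0.42) were not called either. Of 6 endothelial markers only Pecam1 was tested, at 1.54 ± 0.235 CPM in the controls, and it was not called. Of 10 keratinocyte markers 4 rose and 1 fell, with sums of 28682 to 36876 CPM among controls and 40101 to 60046 CPM among knockouts. Krt1 (1.77, SE 0.43), Krt10 (1.16, SE 0.29), Itgb4 (0.90, SE 0.22) and Dsg3 (0.85, SE 0.21) rose and Krt15 (-0.93, SE 0.29) fell. Without knockout 1 none of them rose or fell, without control 3 the number that rose was 1 and without control 1 it was 2. None fell without control 1, control 2, knockout 2 or knockout 3.

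Profiles over the 6 libraries were compared by Pearson's r of log2 CPM among 13972 genes, as a description. The gene most like H2-Ab1 was H2-Aa (r = 0.997), followed by Adgre4, Erich1, 2410004B18Rik and Nkapd1 (r between 0.984 and 0.990), with H2-Eb1 in position 7, H2-DMa in 18 and Cd207 in 20. The genes most like Cd207 were Shld1 (r = 0.998), Cacna1e, March1, Trpv2 and H2-M2, a nonclassical class I gene (r between 0.990 and 0.994 for these 4), with H2-DMa in position 53 and H2-Ab1 in 83. Those most like Il34 were Zfp346, Uggt2, Depp1, Usp18 and G3bp2 (r between 0.985 and 0.993). Il1r2 stood in position 43 for Il34 (r = 0.955) and in position 2860 for Cd207 (r = 0.719), so the pair of genes that fell had different profiles. The libraries share the group difference and the low levels of control 2, and both enter every r.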

How the data were processed

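RNA-seq was made from keratinocytes of 3 control and 3 Lama3 knockout mice as paired reads of 100 bases, per the labels. The authors deposited whole-number counts per Ensembl gene, 1 column per library. Cuffdiff 1.3.0, featureCounts 1.4.6, TopHat 1.3.3 and the build GRCm38 are named per the submitters' processing notes, without order or role. The annotation release, strand setting and handling of multiply mapped reads are not given in the sources used here. Symbols, coordinates and exon lengths came from GENCODE M21 of GRCm38, which named 98.2% of identifiers.

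The deposited counts of all 6 libraries were fitted with edgeR 4.0.16 in R 4.3.3 (TMM factors, filterByExpr by group, robust quasi-likelihood, group as the design), tested on simulated data first. No columns of a group were copies. Ratios of 2 genes were tested by a 2-sided exact permutation of 3 against 3. Alternatives were DESeq2 1.42.0, limma-voom (limma 3.58.1), other scalings and filters, fits without robust estimation, a replicate block, sex as a covariate and each library left out. The 10 genes and the 14 other lists were chosen with earlier results of these data known. The text names the 10 genes, up to 4 called genes with the smallest p and the most abundant gene of each list, the first marker of other cell types, and the 5 genes most like Cd207, H2-Ab1 and Il34. Others, such as Csf1r, Csf1, Ccr7, Cd86, March1, Ctss, Rfxap, Rfxank, Epcam, Krt5, Krt15 and C1qc, were chosen after their values were seen. Some genes that this rule names are not reported here.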

Additional observations from a re-analysis of the deposited data

How the results depend on the processing

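Each group held 3 mice, and several called genes rested on low counts. H2-Ob, Ifng, Ccl21a, C1qb, C1qc, Ccr6, Mgl2 and Lum are among them. All 10 genes kept a negative log2 fold change in all 15 alternatives. The number of them that fell was 2 with all libraries, while 18.8% of all genes fell. It was 0 with no filter on low counts (11.1% of all genes) and 4 with DESeq2 (20.3%). It was 1 with limma-voom (18.8%) and 1 with the replicate block (17.4%). When each library was left out in turn it was 0 to 7 (7 without control 2), and 10.8% to 17.4% of all genes fell. The cause was not tested. None rose in any alternative. Over all genes, 2693 rose and 2919 fell. With upper-quartile factors 1756 rose and 3988 fell, so that 30.6% of called genes were higher against 48.0%, and the median of all genes shifted by -0.15 on the log2 scale. Leaving out each library gave 1586 to 2754 that rose and 1714 to 2771 that fell.

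With all libraries H2-Aa to H2-Ab1 differed by 0.02 on the log2 scale, and by -0.013 to 0.051 with each library left out. The ranges were -0.97 to -0.68 for Cd207 to H2-Ab1 and 0.34 to 0.50 for Cd74 to H2-Ab1. Genes near 0 changed sign without being called. Creb1 was at -0.011 with upper-quartile factors. B2m was at 0.0037 with no filter and at -0.11 to 0.070 with each library left out. Mertk was at 0.021 with sex as a covariate and at -0.28 to 0.21 with each library left out. Col1a1 was at 0.071 with limma-voom, 0.046 with the replicate block, 0.39 with sex as a covariate and at -0.58 to 0.44 with each library left out.

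The replicate numbers were not shown to pair the mice: same-numbered libraries had deviations from their group means that correlated at -0.11, -0.10 and 0.42. With the number as a block 2422 genes rose and 2701 fell, and of the 10 genes Il1r2 was called (edgeR adjusted p = 0.0325).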
